A study of Mus musculus with 25 samples.

Results

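Lipid droplet coat and lipolysis genes were followed in hepatocytes of C57BL/6 mice kept on a normal diet or fed a NASH diet, which brings on fatty liver with inflammation (non-alcoholic steatohepatitis), for 1 to 6 weeks. The group holds 10 genes, taken by symbol from the 37085 gene symbols of the count table: Plin2, Plin4, Plin5, Hsd17b13, Cidea, Cideb, Cidec, Pnpla2, G0s2 and Hilpda. All 10 were in the table, and 8 passed the filter on low counts and were tested. Cidea and Cideb did not pass it and are described by their counts. Transcript 3′ ends were sequenced in 25 libraries: 5 of mice on normal diet, and 4, 3, 4, 3, 3 and 3 of mice after 1, 2, 3, 4, 5 and 6 weeks of NASH diet. Cells were freed with collagenase, pelleted at low speed and sorted by flow cytometry, and no gene was altered in any group. No source used here gives the make-up of the diet, the age and sex of the mice or the sorting gate. The labels do not state that each library is a separate mouse, so a p-value here measures the spread between libraries.

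A lipid droplet is a core of triglyceride and cholesteryl ester under a single layer of phospholipid, and proteins on that surface decide how fast the core grows or is used. Perilipins coat the surface and limit the access of lipases, while CIDE proteins gather where droplets touch and move lipid from the smaller droplet into the larger. Adipose triglyceride lipase, the product of Pnpla2, takes the first fatty acid off a triglyceride, ABHD5 activates it, and G0S2 and HILPDA inhibit it. In the liver, PLIN2 is the coat protein of most hepatocyte droplets, and storage of fat in many large droplets is the first visible change of fatty liver disease.

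Levels are given as CPM, counts scaled to the library total after a correction for composition. Each transcript gives a tag from its 3′ end only, so a CPM is not scaled by transcript length. Levels of different genes can be set side by side, except where a 3′ end overlaps another gene, as for Cideb, Plin4 and G0s2. Changes are log2 fold changes against normal diet with their standard error (SE), from an edgeR quasi-likelihood test. Calls were made where the p-value, adjusted after Benjamini and Hochberg over the 11869 genes tested, was under 0.05. The 6 weekly comparisons share the same 5 normal-diet libraries.

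Of the 8 tested genes, Plin4, Cidec and Hilpda rose on the NASH diet, and they had the lowest normal-diet levels of the 8. Cidec reached 4.44 ± 0.169 CPM (SD, n = 3) at week 6 against 0.906 ± 0.870 CPM (SD, n = 5) on normal diet. Plin4 reached 3.59 ± 2.50 CPM against 0.741 ± 0.501 CPM, and Hilpda peaked at week 5 with 18.2 ± 4.86 CPM against 8.72 ± 2.25 CPM. The abundant coat genes Plin2 and Hsd17b13 were at 466 ± 90.6 and 431 ± 70.8 CPM at week 6 (SD, n = 3) against 454 ± 130 and 431 ± 20.6 CPM on normal diet (SD, n = 5). Pnpla2, the lipase, was at 46.8 ± 5.15 CPM against 50.0 ± 5.78 CPM.

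**Figure D1:**
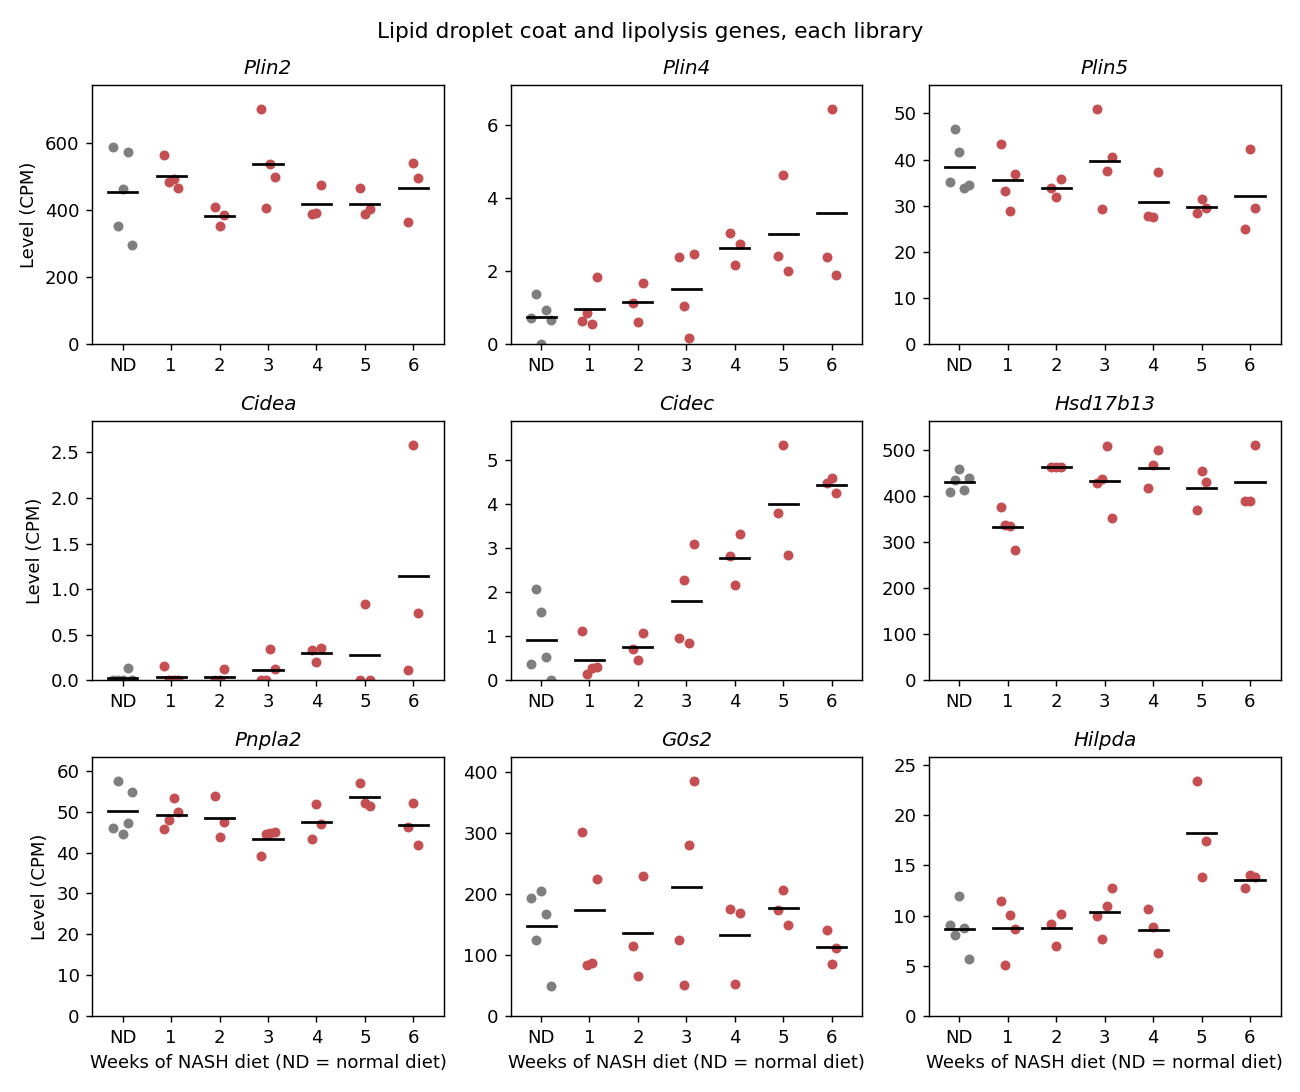
Level (CPM, linear axis from 0) of the 8 tested genes and Cidea in each of the 25 libraries, by diet group (ND, normal diet; 1 to 6, weeks of NASH diet). Points are libraries and black lines are group means; Plin4 and Cidec libraries of weeks 4 to 6 lie above all 5 normal-diet libraries, and Hilpda libraries do so at weeks 5 and 6.

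No member was called at weeks 1 to 4, where 1.2%, 0.885%, 0.851% and 8.3% of all tested genes were called. At an unadjusted p under 0.05 the number of members was 1, 0, 0 and 2 by edgeR, and DESeq2 called 1, 0, 0 and 2 members after adjustment. The voom method of limma called 0, 0, 0 and 1. At week 5, 3 of the 8 were called, all higher (Plin4, Cidec and Hilpda), where 35.4% of all genes were called, 19.1% higher and 16.3% lower. At week 6, 2 of the 8 were called, both higher (Plin4 and Cidec), where 26.8% were called, 16.3% higher and 10.5% lower. The linear slope over weeks 1 to 6 was called for 3 of the 8, all upward, against 33.9% of all genes, 18.9% upward and 14.9% downward. The test of any difference among the 7 groups called 4 of the 8 (Plin4, Cidec, Hilpda and Hsd17b13) against 29.9% of all genes. The members' share called was close to that of all genes at weeks 5 and 6 and for the slope, so these counts show nothing particular to lipid droplets. The split by direction depends on scaling: with library totals alone in place of the composition correction, 31.8% of all genes were called higher and 3.08% lower at week 5, and 27.5% and 1.95% at week 6. The members called in this way were 5 at week 5, all higher, with Pnpla2 and Hsd17b13 added to the 3. The median log2 fold change of the 8 was 0.17 at week 5 and 0.02 at week 6, beside -0.05 and -0.05 over all tested genes.

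**Figure D2:**
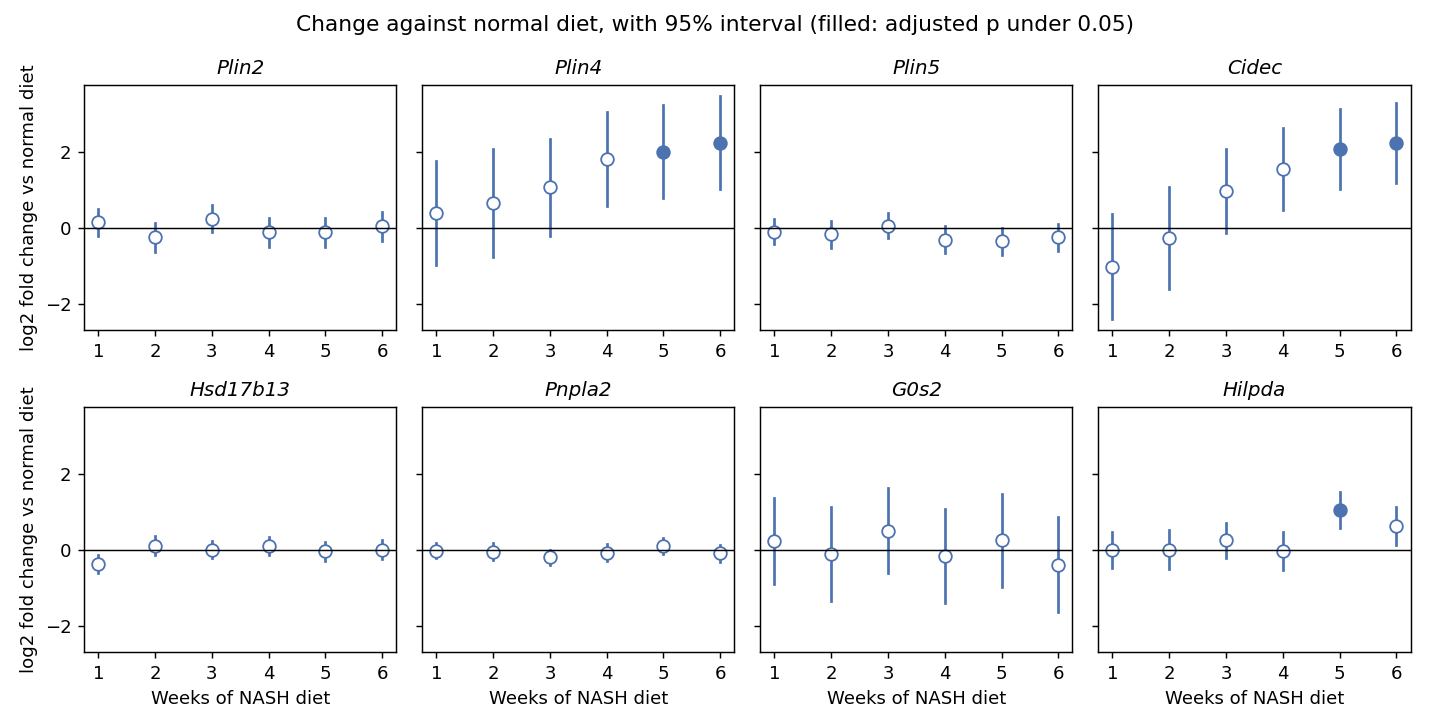
log2 fold change against normal diet (vertical axis) of the 8 tested genes at each week of NASH diet (horizontal axis), with 95% intervals; filled points have an adjusted p under 0.05. Filled points are found at weeks 5 and 6 for Plin4 and Cidec and at week 5 for Hilpda.

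Markers of other liver cells rose in these hepatocyte libraries over the same weeks. The summed level of 10 hepatocyte markers ran from 108822 to 120066 CPM on normal diet and from 83669 to 88237 CPM at week 6. It was already below the normal-diet range at week 1 (91077 to 101954 CPM) and week 3 (86331 to 101561 CPM), with 0 markers called lower. Week 2 overlapped with normal diet (90670 to 110547 CPM). Much of the sum was Alb, with means of 64061 CPM on normal diet, 48532 CPM at week 1 and 61371 CPM at week 4. Of these 10 markers, 7 were called lower at week 5 and 7 at week 6. The 12 Kupffer cell markers summed to 112 to 619 CPM on normal diet, 1722 to 1870 CPM at week 5 and 1438 to 1747 CPM at week 6, with 12 and 11 of 12 called higher. The 12 endothelial markers summed to 196 to 785, 1816 to 2049 and 1430 to 1804 CPM, with 12 and 12 of 12 called higher. The 12 stellate cell markers summed to 73.6 to 145, 450 to 937 and 442 to 773 CPM, with 11 and 11 of 12 called higher. The 13 monocyte and macrophage markers summed to 56.8 to 387, 652 to 889 and 645 to 1014 CPM, with 11 and 12 of 13 called higher. No marker of these 4 lists was at 0 in a whole group. The 7 neutrophil markers summed to 0.544 to 2.83 CPM on normal diet, 3.60 to 6.66 CPM at week 5 and 3.02 to 8.67 CPM at week 6. Of the 3 neutrophil markers tested, 1 was called higher at week 5 and 1 at week 6, while Ly6g was at 0 in each group. The 8 cholangiocyte markers summed to 46.4 to 65.8 CPM on normal diet, 24.7 to 45.7 CPM at week 5 and 40.7 to 55.9 CPM at week 6. Of the 4 cholangiocyte markers tested, 1 was called higher at each of weeks 4, 5 and 6, and 1 lower at week 4. Part of this was already seen at week 4, where 9 of 12 stellate (271 to 602 CPM), 6 of 12 endothelial (534 to 1236 CPM), 1 of 12 Kupffer (542 to 1193 CPM) and 4 of 13 monocyte and macrophage markers (229 to 499 CPM) were called higher and 3 of 10 hepatocyte markers lower. With library totals alone, 1, 4 and 2 of the 10 hepatocyte markers were called lower at weeks 4, 5 and 6. In bulk libraries, more cells of a type and more RNA per cell cannot be told apart.

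Cidec codes for FSP27, the fat-specific protein that fuses droplets and is known from adipose tissue, where droplets are single and large. On normal diet its 5 libraries held 2, 12, 10, 4 and 0 counts, or 0.363, 2.07, 1.56, 0.538 and 0 CPM. The level was 1.12, 0.145, 0.275 and 0.305 CPM at week 1, 0.714, 0.464 and 1.08 CPM at week 2, and 0.960, 2.28, 0.847 and 3.10 CPM at week 3. It then was 2.83, 2.17 and 3.33 CPM at week 4, 3.79, 5.35 and 2.85 CPM at week 5, and 4.47, 4.60 and 4.26 CPM at week 6. Up to week 2 each diet library lay within the normal-diet range, at week 3 the groups still overlapped, and from week 4 on each of the 9 libraries lay above the highest normal-diet library. The log2 fold change was -1.03 ± 0.67 (SE; edgeR adjusted p = 0.643) at week 1 and 1.55 ± 0.53 (edgeR adjusted p = 0.0684) at week 4. It was 2.08 ± 0.51 (edgeR adjusted p = 0.00262) at week 5, a 4.22-fold rise with a 95% interval of 2.03 to 8.79. At week 6 it was 2.23 ± 0.52 (edgeR adjusted p = 0.00215), a 4.70-fold rise with a 95% interval of 2.25 to 9.80. Over the 6 weeks of diet, Cidec rose by 0.68 ± 0.10 log2 units per week (edgeR adjusted p = 2.5e-05), the steepest slope of the 8 tested genes. Without normal-diet library 2, which held 12 counts, the week-4 change was 2.05 with an edgeR adjusted p of 0.0371, and over all 18 alternatives tried for that week the adjusted p ran from 0.0259 to 0.855. RefSeq gives Cidec a pair of start sites, and their windows of 300 bases (250 before and 50 after the start) are printed because Cidec and Plin4 were both above their normal-diet range from week 4. Both are from the minus strand of GRCm38.p6, chr6:113435711-113436010 for the first and chr6:113434715-113435014 for the second, written 5′ to 3′.
Cidec start 1: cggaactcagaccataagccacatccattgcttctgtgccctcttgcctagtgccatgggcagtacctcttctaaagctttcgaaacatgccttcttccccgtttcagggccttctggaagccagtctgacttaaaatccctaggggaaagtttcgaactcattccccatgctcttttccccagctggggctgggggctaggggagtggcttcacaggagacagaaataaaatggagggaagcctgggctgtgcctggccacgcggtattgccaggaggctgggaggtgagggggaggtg
Cidec start 2: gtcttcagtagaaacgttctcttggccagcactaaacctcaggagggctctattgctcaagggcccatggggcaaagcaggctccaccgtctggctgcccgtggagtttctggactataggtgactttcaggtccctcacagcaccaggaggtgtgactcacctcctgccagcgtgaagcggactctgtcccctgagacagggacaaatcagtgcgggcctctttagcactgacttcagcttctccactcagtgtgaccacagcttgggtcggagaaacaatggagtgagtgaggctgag

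Cidea is the relative of Cidec known from brown fat and from livers with much stored fat. It held 45 counts in 12 of the 25 libraries, too few for the filter. On normal diet there was 1 count in 5 libraries, and weeks 1, 2 and 3 held 1, 1 and 3 counts. Week 4 held 3, 2 and 3 counts, week 5 held 0, 7 and 0, and week 6 held 1, 18 and 5. Counts were thus found in each library of weeks 4 and 6, but in 1 of 3 libraries at week 5. Summed over libraries, the rate at week 6 was 31.1 times that on normal diet, with an exact 95% interval of 5.07 to 1280 that covers counting error only. Without week-6 library 2 the ratio was 11.2 (1.36 to 514). An edgeR fit with no filter gave a week-6 log2 fold change of 4.45 ± 1.17 (SE; adjusted p = 0.00566), a value that depends on the prior count since normal diet held 1 count.

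Cideb is the CIDE gene best known from hepatocytes, where its protein takes part in loading lipid onto very-low-density lipoprotein. It held 16 counts over all libraries and at most 3 in any library: 4 on normal diet and 1, 4, 2, 2, 1 and 2 from week 1 to week 6. No week differed from normal diet beyond counting error, and the week-6 ratio of 0.648 has an interval of 0.0586 to 4.52. In the GENCODE annotation of GRCm38, the 3′ end of Cideb lies within Nop9, a gene on the opposite strand that held 45 to 151 counts per library. No source used here says whether the counting used strand, and the part of this overlap in the low count of Cideb was not tested. Plin4 and G0s2 share their 3′ ends in the same way with Hdgfl2 (29 to 91 counts) and Lamb3 (2 to 21 counts), and reads there could be split differently without strand.

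Plin4 is the largest perilipin, abundant in white adipose tissue, and its protein coats newly formed droplets. The 5 normal-diet libraries were at 0.725, 1.38, 0, 0.942 and 0.657 CPM, from 4, 8, 0, 7 and 3 counts. Weeks 1 to 3 ran from 0.549 to 1.83, from 0.618 to 1.68 and from 0.169 to 2.48 CPM. Week 4 was at 3.05, 2.17 and 2.74 CPM, week 5 at 2.43, 4.64 and 2.02 CPM, and week 6 at 2.40, 6.47 and 1.91 CPM. The groups overlapped through week 3, and from week 4 on all 9 libraries lay above the highest normal-diet library, with library 2 the highest of week 5 and of week 6. The log2 fold change was 1.81 ± 0.60 (SE; edgeR adjusted p = 0.0614) at week 4, 2.00 ± 0.60 (edgeR adjusted p = 0.0108) at week 5 and 2.24 ± 0.60 (edgeR adjusted p = 0.00642) at week 6. The rises of 4.01-fold and 4.73-fold at weeks 5 and 6 have 95% intervals of 1.71 to 9.41 and 2.02 to 11.1. Both calls rested on that highest library: the change was 1.56 (edgeR adjusted p = 0.0873) without week-5 library 2 and 1.53 (edgeR adjusted p = 0.0908) without week-6 library 2. Over all 17 alternatives the adjusted p ran from 0.00295 to 0.630 at week 5 and from 0.00117 to 0.429 at week 6, with the highest from the model with the marker score. The slope over weeks 1 to 6 was 0.40 ± 0.10 log2 units per week (edgeR adjusted p = 0.00378), and it was called with any 1 library left out. The window at the Plin4 start, shown beside those of Cidec, is on the minus strand of GRCm38.p6 at chr17:56109733-56110032.
Plin4: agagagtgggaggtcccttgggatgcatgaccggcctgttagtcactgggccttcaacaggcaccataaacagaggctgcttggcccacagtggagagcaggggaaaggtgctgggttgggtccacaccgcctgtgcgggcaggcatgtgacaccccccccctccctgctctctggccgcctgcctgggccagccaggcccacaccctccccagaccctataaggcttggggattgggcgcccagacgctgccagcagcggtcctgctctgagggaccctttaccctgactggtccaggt

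Short motifs were searched on both strands of the promoter windows of RefSeq. First came AGGTCA, the half-site of many nuclear receptors. Next were 2 copies of AGGTCA in the same direction with 1 base between them, the form bound by the PPAR family. This direct repeat includes AGGTCA by construction. The last was ACGTG, 1 form of the core of the hypoxia response element. The other form of that core, GCGTG, was not searched. AGGTCA was found in 16.3% of 32851 windows of all genes, the direct repeat in 0.04% and ACGTG in 19.6%. Windows of 9 of the 10 members were searched, 12 in all. The Plin4 window and both Cidec windows held none of the 3. No member window held the direct repeat, and AGGTCA was found in those of Plin2, Plin5 and Hsd17b13. ACGTG was found at Plin2 and at the second start of Hilpda. These are matches of letters in a short window and not binding sites.

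Hilpda codes for a small droplet protein that binds and inhibits adipose triglyceride lipase and is known for its induction by low oxygen and by fatty acids. Its 5 normal-diet libraries were at 9.07, 8.10, 12.0, 8.75 and 5.70 CPM. Through week 4 the 14 diet libraries ran from 5.06 to 12.8 CPM, around the normal-diet values. Week 5 was at 23.4, 13.8 and 17.5 CPM and week 6 at 12.8, 14.1 and 13.8 CPM. All 6 libraries of weeks 5 and 6 lay above the highest normal-diet library, though by little at week 6. The log2 fold change was 1.05 ± 0.23 (SE; edgeR adjusted p = 0.000960) at week 5, a 2.08-fold rise with a 95% interval of 1.49 to 2.89. At week 6 it was 0.62 ± 0.24 (edgeR adjusted p = 0.0549), just short of the threshold, and without normal-diet library 3, the highest of that group, it was 0.76 with an edgeR adjusted p of 0.0237. It was also called by DESeq2 (0.66, adjusted p = 0.0376), with library totals alone (0.92, edgeR adjusted p = 0.00585), with median-of-ratios scaling, with the stricter filter and from only both groups (edgeR adjusted p = 0.0446, 0.0435 and 0.0463), and over all 18 alternatives the adjusted p reached 0.952. The slope was 0.17 ± 0.04 log2 units per week (edgeR adjusted p = 0.00318). At week 4 Hilpda was still at 8.61 ± 2.19 CPM (SD, n = 3), with a log2 fold change of -0.03 ± 0.24. The window at its second start, on the plus strand of GRCm38.p6 at chr6:29272376-29272675, holds ACGTG with its first base 43 bases before the start, in capitals.
Hilpda start 2: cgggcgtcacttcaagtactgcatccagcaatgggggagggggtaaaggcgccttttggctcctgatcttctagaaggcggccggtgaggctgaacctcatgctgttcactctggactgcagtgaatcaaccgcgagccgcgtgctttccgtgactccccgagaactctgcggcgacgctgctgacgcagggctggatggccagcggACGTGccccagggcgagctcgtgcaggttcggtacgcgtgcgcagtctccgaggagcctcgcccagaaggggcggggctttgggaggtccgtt

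Plin2, the coat protein whose amount follows the amount of stored lipid in hepatocytes, was the most abundant member on average. On normal diet its libraries were at 587, 350, 463, 573 and 296 CPM, a range from 296 to 587 CPM beside one from 296 to 701 CPM over all 25 libraries. Group means were 500 ± 42.9, 381 ± 27.5, 535 ± 124, 417 ± 48.0, 417 ± 42.1 and 466 ± 90.6 CPM (SD) from week 1 to week 6, with no steady direction. All 6 weekly groups overlapped with normal diet. The log2 fold change was -0.12 ± 0.19 (SE; edgeR adjusted p = 0.658) at week 5 and 0.04 ± 0.19 (edgeR adjusted p = 0.911) at week 6. The 95% interval at week 6, from -0.35 to 0.42, contains neither a doubling nor a halving. Its promoter is printed for comparison with those of the genes that rose, since it is the coat gene of highest mean level on normal diet. It lies on the minus strand of GRCm38.p6 at chr4:86670010-86670309. The capitals mark TGACCT, which is AGGTCA read from the other strand, with its first base 218 bases before the start, and CACGTG, in which ACGTG is found on both strands, at 4 and 3 bases before the start.
Plin2: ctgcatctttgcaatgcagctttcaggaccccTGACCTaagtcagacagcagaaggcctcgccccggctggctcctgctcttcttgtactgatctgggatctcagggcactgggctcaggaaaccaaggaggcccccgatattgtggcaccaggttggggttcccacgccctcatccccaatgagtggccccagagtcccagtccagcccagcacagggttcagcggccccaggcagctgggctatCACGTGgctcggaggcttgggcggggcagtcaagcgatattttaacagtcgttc

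Plin5 is the perilipin of tissues that burn much fat, and its protein holds droplets close to mitochondria. Its normal-diet libraries were at 35.2, 46.6, 41.6, 33.8 and 34.4 CPM, its week-5 libraries at 28.4, 31.4 and 29.6 CPM and its week-6 libraries at 24.9, 42.2 and 29.4 CPM. The week-5 libraries lay below the lowest normal-diet library, while week 6 was split by its library 2. The log2 fold change was -0.36 ± 0.17 (SE; edgeR adjusted p = 0.110) at week 5 and -0.26 ± 0.18 (edgeR adjusted p = 0.303) at week 6, neither past the threshold. Without week-6 library 2, the week-6 change was -0.50 (edgeR adjusted p = 0.0482) and the slope -0.08 log2 units per week (edgeR adjusted p = 0.0450). Over all 18 alternatives at week 6 the adjusted p reached 0.941. That library was also the one highest in Plin4 and Cidea.

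Hsd17b13 codes for a droplet protein made almost only in hepatocytes and related to retinol and steroid dehydrogenases. Its 5 normal-diet libraries lay close together at 408, 435, 459, 414 and 440 CPM. At week 1 the 4 libraries were at 377, 336, 334 and 282 CPM, all below the lowest normal-diet library. Week 2 was back at 464, 464 and 464 CPM, just above the highest normal-diet library, and the means of weeks 3 to 6 were between 418 and 462 CPM. The log2 fold change was -0.37 ± 0.11 (SE; edgeR adjusted p = 0.120) at week 1, 0.11 ± 0.12 (edgeR adjusted p = 0.774) at week 2 and -0.04 ± 0.12 (edgeR adjusted p = 0.816) at week 5. The dip at week 1 did not pass the threshold by edgeR, and DESeq2 put it at -0.37 with an adjusted p of 0.0494, the lowest of 19 alternatives, which reached 0.347. The test of any difference among the 7 groups was just past the threshold (edgeR adjusted p = 0.0473). Leaving out 1 library at a time moved this adjusted p between 0.0248 and 0.204 and ended the call in 17 of 25 cases. These were each of the 5 normal-diet libraries, libraries 2, 3 and 4 of week 1, libraries 1, 2 and 3 of week 2, libraries 1 and 2 of week 3, and libraries 2 and 3 of weeks 4 and 5.

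Pnpla2 was the steadiest of the tested members. Its normal-diet libraries were at 46.1, 57.6, 44.5, 47.3 and 54.8 CPM, and all 25 libraries lay between 39.2 and 57.6 CPM. The largest weekly change was -0.20 ± 0.10 (SE, log2 scale; edgeR adjusted p = 0.376) at week 3. At week 6 it was -0.10 ± 0.11 (edgeR adjusted p = 0.554), with a 95% interval from -0.32 to 0.13. The biological coefficient of variation, the spread between libraries of a group beyond counting error, was 0.107 for Pnpla2, at the 3.83rd percentile of all tested genes.

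G0s2, whose protein binds the lipase and blocks it, was the opposite: its coefficient of variation was 0.552, at the 98.4th percentile of all tested genes. The normal-diet libraries were at 195, 126, 204, 168 and 49.7 CPM, and week 3 ran from 51.6 to 386 CPM. G0s2 is known to follow feeding and insulin, and no source used here gives the feeding state of the mice. No weekly change was called, with log2 fold changes from -0.39 ± 0.61 (SE, week 6; edgeR adjusted p = 0.678) to 0.51 ± 0.55 (week 3; edgeR adjusted p = 0.711). The week-6 interval of -1.65 to 0.86 reaches from 0.319-fold to 1.81-fold, so these libraries do not exclude changes within it. The level of G0s2 relative to Pnpla2, inhibitor to lipase, was 3.09 ± 1.53 (SD, n = 5) on normal diet and 2.46 ± 0.724 (SD, n = 3) at week 6. That of Hilpda relative to Pnpla2 was 0.179 ± 0.0624 on normal diet, 0.339 ± 0.0729 at week 5 and 0.292 ± 0.0330 at week 6. The ratios of week 5 (0.265 to 0.411) overlapped with those on normal diet (0.104 to 0.269), and those of week 6 (0.270 to 0.330) lay barely above them.

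On normal diet the order of mean levels was Plin2, Hsd17b13, G0s2, Pnpla2, Plin5, Hilpda, Cidec, Plin4, Cideb and Cidea. Neighbours whose normal-diet libraries did not overlap were Hsd17b13 above G0s2, Plin5 above Hilpda, and Hilpda above Cidec. The other neighbours overlapped. The places of Cideb, Plin4 and G0s2 are uncertain, since their 3′ ends lie within genes on the opposite strand and the use of strand is not known. Plin2 and Hsd17b13 made up 32.8% to 51.6% and 26.4% to 49.9% of the members' summed level in each library, and Cidec never more than 0.463%. That sum was 1132 ± 172 CPM on normal diet (SD, n = 5) and 1111 ± 114 CPM at week 6 (SD, n = 3), so the genes that rose moved the total of the group very little.

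Other genes of droplets and lipolysis were taken from lists of 17 droplet genes and 14 lipases and cofactors. Of the droplet genes 15 were tested. At week 5, 0 were called higher and 6 lower (Bscl2, Aup1, Faf2, Acsl3, Mettl7a1 and Mettl7b), and at week 6 1 higher (Hsd17b11) and 2 lower (Mettl7a1 and Mettl7b). With library totals alone, 1 was called higher and 1 lower at week 5, and 2 higher and 0 lower at week 6, so most of these falls were relative to the composition correction. Their median log2 fold change was -0.34 at week 5 and -0.22 at week 6, and -0.01 and 0.07 with library totals alone. Hsd17b11, the close relative of Hsd17b13 on droplets, rose early: from 180 ± 13.1 CPM on normal diet (SD, n = 5) to 262 ± 26.7 CPM at week 1 (SD, n = 4), a log2 fold change of 0.54 ± 0.10 (SE; edgeR adjusted p = 0.00286). It was called at weeks 1 to 4 and 6, with 242 ± 30.0 CPM at week 6. Acsl3, which activates fatty acids on forming droplets, fell from 55.3 ± 9.15 to 32.7 ± 3.80 CPM at week 1 (log2 fold change -0.75 ± 0.18, edgeR adjusted p = 0.0287). With library totals alone this change was -0.63 (edgeR adjusted p = 0.0605). At week 5 Acsl3 was at 28.8 ± 10.2 CPM (-0.94 ± 0.20, edgeR adjusted p = 0.000614). That fall was also called with library totals alone, at -0.60 (edgeR adjusted p = 0.0118). Hsd17b11 and Acsl3 both moved at week 1, when no member was called. Aup1, a droplet protein that also serves in protein degradation, fell from 115 ± 12.1 to 81.5 ± 5.01 CPM at week 5 (-0.50 ± 0.12, edgeR adjusted p = 0.00176; -0.16 and 0.240 with library totals alone). Mettl7a1, which is anchored on droplets, fell from 255 ± 21.9 to 173 ± 51.0 CPM at week 6 (-0.56 ± 0.15, edgeR adjusted p = 0.00628; -0.26 and 0.196 with library totals alone).

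All 14 lipases and cofactors were tested. At week 5, 1 was called higher (Mgll) and 3 lower (Abhd5, Aadac and Ces1f), and at week 6 1 higher (Mgll) and 5 lower (Abhd5, Aadac, Ces1d, Ces1f and Abhd6). With library totals alone, 2 were called higher and 0 lower in each of these weeks. Mgll was also called at weeks 1, 3 and 4, while at week 2 edgeR called 0 of the 14 (4 at an unadjusted p under 0.05). Abhd5, the activator of the Pnpla2 lipase, fell from 19.0 ± 3.07 CPM on normal diet (SD, n = 5) to 10.6 ± 1.01, 11.3 ± 0.843 and 11.9 ± 1.40 CPM at weeks 4, 5 and 6 (SD, n = 3 each). Its log2 fold changes were -0.84 ± 0.17, -0.75 ± 0.16 and -0.68 ± 0.17 (SE; edgeR adjusted p = 0.00384, 0.000966 and 0.00336), and all 9 libraries lay below the lowest normal-diet library. With library totals alone the change at week 4 was still called, at -0.68 (edgeR adjusted p = 0.0163). Those at weeks 5 and 6 were -0.42 (edgeR adjusted p = 0.0597) and -0.38 (edgeR adjusted p = 0.102). The lipase itself was not called in these weeks, and the difference between lipase and activator was not tested. Mgll, which removes the last fatty acid from glycerol, rose from 200 ± 50.0 CPM to between 261 and 343 CPM at week 1 (log2 fold change 0.59 ± 0.15, edgeR adjusted p = 0.0426) and was at 304 ± 54.5 CPM at week 6 (0.60 ± 0.16, edgeR adjusted p = 0.00539). Abhd6, another monoacylglycerol lipase, fell from 40.3 ± 4.42 to 29.1 ± 2.84 CPM at week 6 (-0.47 ± 0.13, edgeR adjusted p = 0.00763; -0.17 and 0.351 with library totals alone). Ldah, a droplet hydrolase, had a downward slope of -0.11 ± 0.03 log2 units per week (edgeR adjusted p = 0.0019; -0.06 and 0.0472 with library totals alone), from 37.5 ± 3.76 CPM at week 1 to 28.7 ± 4.87 CPM at week 6, which put it above and then near its normal-diet level of 30.7 ± 1.40 CPM. Its change against normal diet, not called in either scaling, turned from -0.22 to 0.12 at week 5 and from -0.10 to 0.20 at week 6 with library totals alone.

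Of 13 transcription factors and cofactors of lipid genes, 1 was called higher (Epas1) and 4 lower (Rxra, Ppargc1a, Creb3l3 and Cebpa) at week 5, and 1 higher (Epas1) and 2 lower (Ppargc1a and Cebpa) at week 6. With library totals alone, 2 were called higher and 1 lower at week 5, and 2 higher and 0 lower at week 6. At weeks 1 to 3 edgeR called 0 of the 13, with 2, 1 and 1 at an unadjusted p under 0.05. Epas1, the oxygen-regulated factor also known as HIF-2α, rose from 54.2 ± 6.14 CPM (SD, n = 5) to 81.2 ± 3.75 CPM at week 5 (SD, n = 3), a log2 fold change of 0.58 ± 0.11 (SE; edgeR adjusted p = 0.000215). With library totals alone the week-5 change of Epas1 was 0.91 (edgeR adjusted p = 6.86e-06). Epas1 is also strongly expressed in endothelial cells, whose markers rose in the same weeks. The part of endothelial RNA in its rise was not tested. Cebpa, a factor of mature hepatocytes, fell from 286 ± 44.2 to 196 ± 2.17 CPM at week 5 (-0.54 ± 0.12, edgeR adjusted p = 0.00108; -0.21 and 0.146 with library totals alone). Ppargc1a, a coactivator of fatty acid oxidation, fell from 19.7 ± 6.46 to 9.30 ± 1.36 CPM (-1.08 ± 0.25, edgeR adjusted p = 0.00169). Its week-5 change was also called with library totals alone, at -0.73 (edgeR adjusted p = 0.0273). Creb3l3, a liver factor activated by fasting, fell from 405 ± 47.6 to 287 ± 16.1 CPM (-0.50 ± 0.14, edgeR adjusted p = 0.00844; -0.16 and 0.350 with library totals alone). Hepatocyte markers were also lower at weeks 5 and 6, with their sum already lower at week 1. Their part in these falls was not tested.

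**Figure D3:**
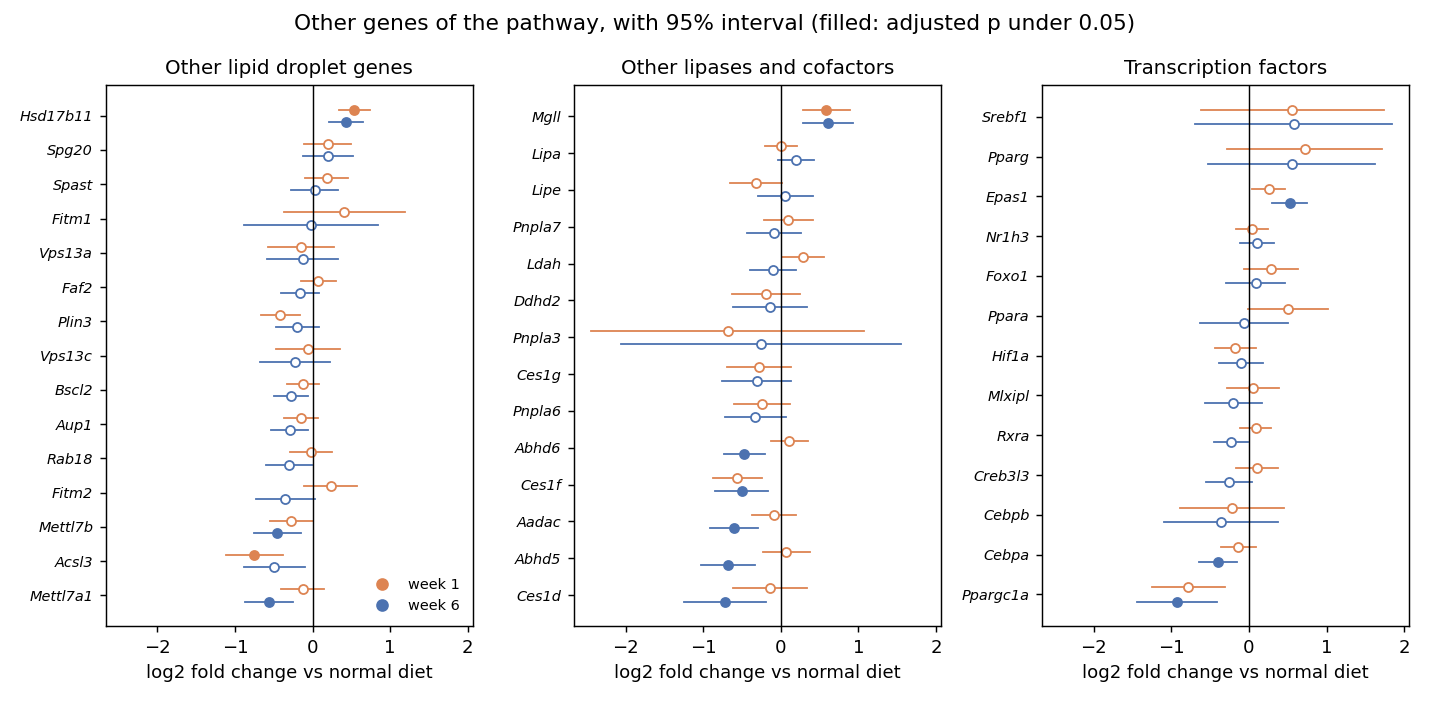
log2 fold change against normal diet (horizontal axis) with 95% intervals for the 42 tested genes of the 3 lists, at week 1 (orange) and week 6 (blue); filled points have an adjusted p under 0.05. Hsd17b11 and Mgll are filled and higher in both weeks, and Abhd5, Mettl7a1 and Ppargc1a are filled and lower at week 6.

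The weekly changes of the members were also set beside those of 1850 other genes. Likeness was measured by the root mean square difference of the 6 log2 fold changes. Each of the 1850 was at 10 CPM or more on average and was called in the test of any difference among the 7 groups. A gene not called in that test could therefore not be found as nearest. The nearest to Plin4 were Tmem106a, Anxa2 and Cd36, at 0.244, 0.248 and 0.248. The nearest to Cidec were Cyp26b1, Clec14a and Aqp1, at 0.544, 0.554 and 0.589. The nearest to Hilpda were Arhgef7, Snx5 and Crlf2, at 0.111, 0.143 and 0.151, and the nearest to Hsd17b13 included Cfl1 and Pcm1, at 0.146 and 0.165. Aqp1 is among the 12 endothelial markers, and Clec14a is known as an endothelial gene. At week 6 their log2 fold changes were 2.06 and 2.17, beside 2.23 for Cidec. In earlier weeks they were less alike: 0.01 and 0.03 at week 1 beside -1.03 ± 0.67 (SE) for Cidec. At week 3 they were 0.18 and 0.41 beside 0.97 ± 0.54. A shared cell source was not tested. All these values share the normal-diet libraries, and a small difference says only that the 6 changes were alike. Since the candidates were picked by a test on the same libraries, likeness to genes that changed was partly set by that choice.

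A marker score, the mean log2 CPM of the Kupffer, endothelial and stellate markers in a library, summarised the other cells. It was 3.37 ± 0.779 on normal diet (SD, n = 5), 4.04, 4.32 and 4.14 on average at weeks 1, 2 and 3, and 4.86 ± 0.509, 5.93 ± 0.189 and 5.67 ± 0.155 at weeks 4, 5 and 6 (SD, n = 3 each). The score of every library of weeks 5 and 6 was above that of every normal-diet library. With the score as a term in the edgeR model, 0 members were called in any comparison, and 1 had an unadjusted p under 0.05 at week 5 and 1 at week 6. The week-5 change became 2.45 for Plin4 (edgeR adjusted p = 0.630), 0.45 for Cidec (edgeR adjusted p = 0.946) and 0.25 for Hilpda (edgeR adjusted p = 0.928). At week 6 it was 2.63 for Plin4 (edgeR adjusted p = 0.429) and 0.78 for Cidec (edgeR adjusted p = 0.83). The Plin4 change was thus as large with the term, and those of Cidec and Hilpda were smaller. Over all genes this model called 17 at week 5 and 25 at week 6, so diet and score could scarcely be told apart in it.

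**Figure D4:**
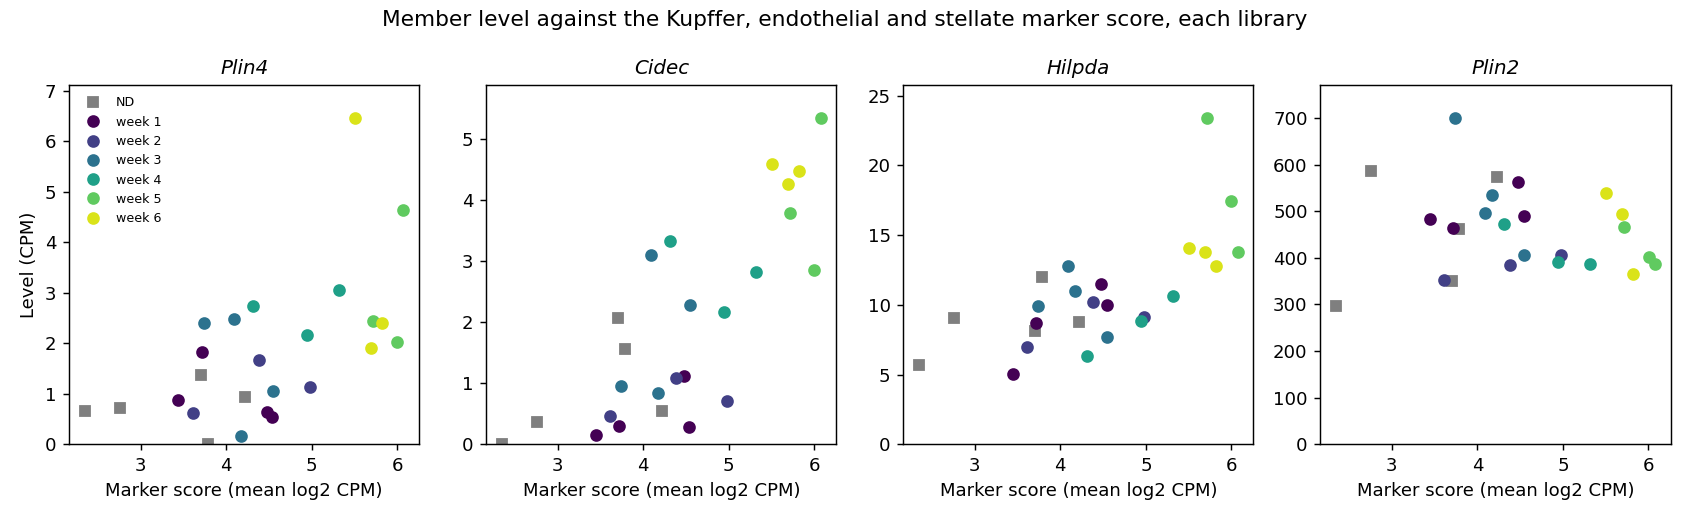
Level (CPM, linear axis from 0) of Plin4, Cidec, Hilpda and Plin2 in each of the 25 libraries against the marker score of that library (mean log2 CPM of the Kupffer, endothelial and stellate markers), coloured by group. Normal-diet libraries (grey squares) have scores from 2.35 to 4.22 and the libraries of weeks 5 and 6 from 5.51 to 6.07, while the libraries of week 4 lie between 4.31 and 5.32.

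Plin4, Cidec and Cidea are also known as adipocyte genes, so 10 adipocyte markers were read in each library. Lep and Adig were at 0 in all 25 libraries, Plin1 never exceeded 1 count, and Adipoq held 3 counts in 1 normal-diet library and 1 count in each of 2 diet libraries. Retn and Slc36a2 held at most 4 counts and 1 count in any library. Trarg1 held 1 count in the 5 normal-diet libraries and 3, 0 and 5 counts at week 4. The week-5 libraries held 5, 4 and 8 counts of it and the week-6 libraries 4, 2 and 9, each more than any normal-diet library. The part of adipocyte RNA in the rises of Plin4, Cidec and Cidea was not tested. The summed level of the list was nonetheless 16.3 to 33.9 CPM on normal diet and 77.2 to 107 CPM at week 6, with 2 of its 3 tested genes called higher. These were Cfd, which codes for adipsin, and Fabp4, which macrophages and endothelial cells also express. The other tested gene, Lipe, ran from 11.6 to 23.3 CPM on normal diet and was at 19.0, 18.8 and 16.5 CPM at week 6. Its week-6 log2 fold change was 0.06 ± 0.17 (SE, edgeR adjusted p = 0.836). Cfd ran from 0.219 to 1.38 CPM on normal diet and was at 19.6, 69.4 and 15.7 CPM in the week-6 libraries. Fabp4 was at 64.7, 18.1 and 43.5 CPM in the same 3 libraries. Library 2 of week 6, the highest in Plin4, Cidea and Cfd, was thus the lowest of its group in Fabp4, and its marker score of 5.51 was also the lowest of its group.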

How the data were processed

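The authors deposited a table of raw counts, with gene symbols as rows and libraries as columns (whole numbers, checked on the values). Per the labels, the QuantSeq FWD kit made libraries from transcript 3′ ends. FastQC, cutadapt, STAR 2.7.1a and the build GRCm39 are named in the submitters' processing notes. No source used here gives the counting tool, its strand setting or the annotation. Totals ran from 5281143 to 10015751 counts, and intervals on counts cover counting error only. Libraries of a group were not copies: over 34 pairs, chi-square over degrees of freedom was 5.63 to 33.1.

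Here, edgeR 4.0.16 (R 4.3.3) with TMM factors, the filterByExpr filter by group and robust quasi-likelihood F-tests fitted 1 model of 7 groups to all 25 libraries (18 residual degrees of freedom), with p-values adjusted over all genes tested. SE is the size of a change over the square root of F, and log2 CPM uses a prior count of 2. Alternatives, 1 at a time, were other scaling, no filter or 5 CPM in 3 libraries, DESeq2 1.42.0, limma 3.58.1 voom, the replicate number as a block, the marker score as a term, only both compared groups, and libraries left out. On simulated counts with known changes at week 6, the script was tested before use.

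Members and gene lists were chosen with earlier results of these data known. Named are all members, from each other list the 4 genes of smallest p in the test of any difference, and the 3 genes nearest to each called member, of which 1 is not reported here. Promoter windows are from RefSeq (GRCm38.p6), not the build of the counts. The window of Cidea is not used here.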

Additional observations from a re-analysis of the deposited data

Results flagged for a closer look

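In groups of 4 or 5 libraries, 24 combinations of member and group were checked for a library far from the others, which chance alone gives in about 1 of 20, and 2 were found. Cidec in week-1 library 1 was at 1.12 CPM, with the other 3 libraries between 0.145 and 0.305 CPM. Pnpla2 in week-3 library 1 was at 39.2 CPM, with the other 3 between 44.6 and 45.1 CPM.

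The change differed between weeks of diet for 3 members, by the edgeR test of the linear slope over weeks 1 to 6. The slope was 0.40 log2 units per week for Plin4, 0.68 for Cidec and 0.17 for Hilpda. With the marker score of other cells as a term the slopes were 0.47, 0.43 and 0.05, none of them called (edgeR adjusted p = 0.440, 0.438 and 0.889).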

How the results depend on the processing

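The number of members called differed from the reported one in 43 of 173 recomputed counts, 11 of them by more than 1.5 times or from or to 0. At week 1 DESeq2 called 1; at week 4 library size only called 2, DESeq2 2 and voom 1; at week 5 library size only called 5. At week 6 median-of-ratios scaling, library size only, DESeq2 and only both groups called 3 in place of 2, with Hilpda added. No filter also called 3 at week 6, but with Cidea added (edgeR adjusted p = 0.00566), which the main filter removes. Library size only added Hsd17b13 to the slope (0.09 log2 units per week, edgeR adjusted p = 0.00154). With the marker score as a term 0 were called at week 5, at week 6, for the slope and for any difference (1, 1, 2 and 2 at an unadjusted p under 0.05), and without normal-diet libraries 1 and 5 any difference called 2. Leaving out 1 library at a time gave 0 to 0 members at weeks 1 to 3, 0 to 1 at week 4, 2 to 3 at weeks 5 and 6, 3 to 4 for the slope and 3 to 4 for any difference. Library size only shifted the median log2 fold change of all genes by 0.33 at week 5 and 0.30 at week 6. Under it the week-5 change of Hsd17b13 turned from -0.04 to 0.30 (adjusted p = 0.0494), which is within that shift. The replicate numbers did not pair the libraries (median correlation of same-numbered libraries -0.01 over 66 pairs), and with the replicate block the number called was the same in each comparison except any difference, where Hsd17b13 had an adjusted p of 0.0524. The Cidea ratio without week-6 library 2 was chosen after seeing the data. At these depths Cidec, Plin4 and Cidea rest on at most 45 counts in any library, and small changes in them were not detectable.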
